A study of Anguilla japonica with 6 samples.

Results

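Genes of meiotic recombination were examined in the gonads of the Japanese eel (Anguilla japonica), namely 5 genes called mei1, dmc1, hsf2bp, cntd1 and c9orf84. They were chosen by name, as the transcripts whose best Swiss-Prot hit in a vertebrate carries one of these 5 gene symbols, and they comprise 12 of 35011 full-length transcripts and 5 of 9262 gene symbols. The samples were 3 testes and 3 ovaries, each from a different farmed fish at the silver stage, with gonads that had differentiated but were still immature, and without any hormone treatment in either sex. Short reads of each gonad had been assigned to full-length transcripts, which came from PacBio long reads of both tissues. Values are given as FPKM, which are reads scaled for transcript length and library size. A gene's level is the sum over its transcripts, and fold changes are testis over ovary.

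In meiosis, chromosomes are broken on purpose and the breaks are repaired from the partner chromosome, and a few of these repairs become crossovers that hold the pair together until it separates. Mei1 is needed to make the breaks in the mouse. Dmc1 is the recombinase that carries out strand exchange in meiosis only, and hsf2bp helps to bring the recombinases to the breaks in the mouse. C9orf84, also called SHOC1 and the counterpart of the yeast protein Zip2, stabilises the intermediates that will become crossovers, and cntd1, a cyclin-like protein, drives their maturation in the mouse. In the testis these genes belong to spermatocytes, whereas in a mammalian ovary oocytes pass this step early and then stay arrested. Neither the meiotic stage of the eel oocytes nor the presence of spermatocytes in these immature testes was examined.

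All 5 genes were higher in testis than in ovary, by 5.68 to 10.53 on the log2 scale, and none of their testis values came near an ovary value. The lowest testis stood 29.0 times above the highest ovary for dmc1, 111 times for hsf2bp, 119 times for mei1, 275 times for cntd1 and 815 times for c9orf84. All 5 passed the test of edgeR, with adjusted p values from 0.000758 to 0.000854. Cntd1 and c9orf84 entered the test through their testis counts alone, so they could not have been called higher in ovary. Of 12367 genes tested (units with or without a symbol), 45.9% were called in either direction, 24.8% were called higher in testis and 35.1% had all testes above all ovaries. Genes called higher in testis by at least 5 on the log2 scale made up 4.19%. Larger log2 fold changes than that of c9orf84 were found for 21 genes, and than that of dmc1, the smallest of the 5, for 373 genes. The 5 genes were chosen with earlier results of these data known, so these shares and ranks describe them and test nothing. For the same reason their p values are no independent evidence. In whole gonads, fewer cells of a type and less RNA per cell cannot be told apart.

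**Figure D1:**
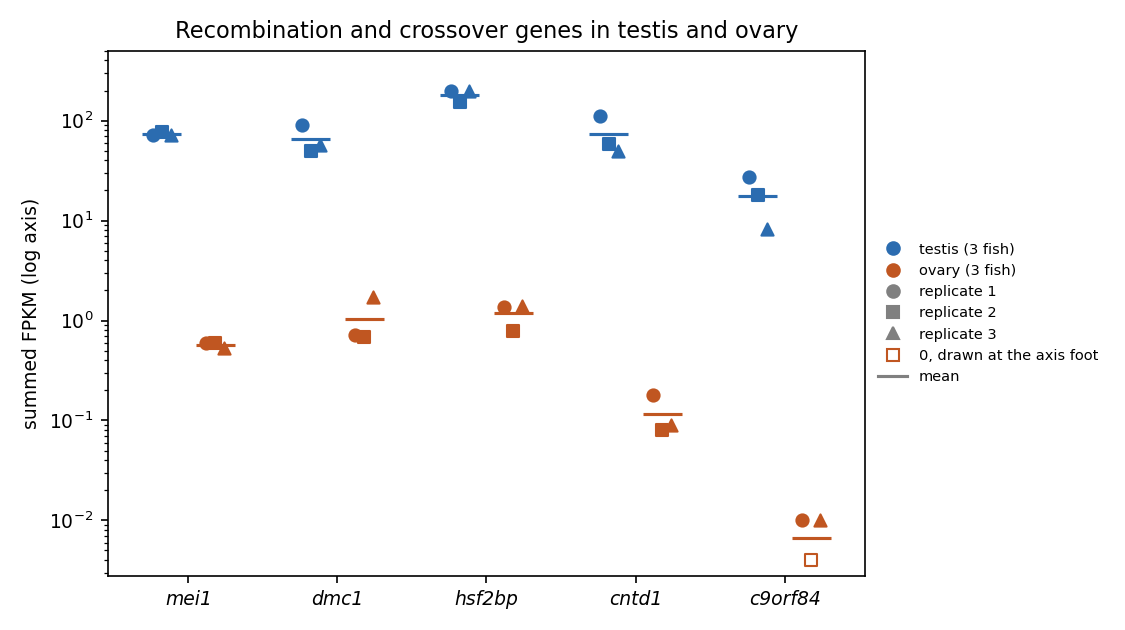
Summed FPKM of the 5 genes (log axis) in each of 3 testes (blue) and 3 ovaries (orange), with symbols for the replicate and bars for the mean of a tissue. Every testis lies above every ovary for each gene, hsf2bp has the highest testis mean (182 FPKM) and c9orf84 the lowest (17.8 FPKM), and the open square is the ovary in which c9orf84 was 0.

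The library totals ran from 11913969 to 13616804 estimated counts in testis and from 15096728 to 18508307 in ovary. Across genes, rank correlations of expression were 0.899 to 0.919 between ovaries and 0.452 to 0.528 between a testis and an ovary. Testis replicate 1 stood apart, with 0.785 and 0.773 to testis replicates 2 and 3, which had 0.917 with each other. It held 3723 FPKM of cahz, the carbonic anhydrase known from red cells of fish, against 81.0 and 132 FPKM in replicates 2 and 3, while alas2, the other matched marker of red blood cells, was lowest there, at 3.17 FPKM against 39.6 and 12.2 FPKM. The 8 matched markers of the sperm flagellum summed to 670 FPKM there, against 298 and 253. Testis replicate 2 stood out by egg envelope genes zp1 to zp4, whose sum was 586, 22788 and 4408 FPKM in testis replicates 1, 2 and 3 and 142657, 135001 and 153362 FPKM in the ovaries. Testis replicate 3, the fish with the least cntd1 and c9orf84, was highest in somatic markers of the testis, whose 6 matched genes summed to 162, 170 and 463 FPKM in testis replicates 1, 2 and 3 and to 10.1, 34.7 and 5.3 FPKM in the ovaries. The part of these differences in the results was not tested. Of the tissue's defining markers, dmrt1 stood at 55.2 to 85.5 FPKM in testis and 1.01 to 4.08 FPKM in ovary, and bmp15 of the oocyte at 3.60 to 4.77 FPKM in testis and 57 to 66.2 FPKM in ovary. All 5 matched oocyte markers were lower in each testis than in any ovary. The 1 matched somatic marker of the ovary, foxl2, was not called (edgeR adjusted p = 0.63). It had 0.15, 3.02 and 0.53 FPKM in testis replicates 1, 2 and 3, against 2.12, 1.9 and 1.15 FPKM in the ovaries. Amh, gsdf, sox9, insl3 and cyp19a1 matched no transcript by symbol and are not analysed here.

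Mei1, the gene of break formation, was the steadiest of the 5 in testis by FPKM. It stood at 71.7, 77.5 and 71.6 FPKM in the testes, against 0.60, 0.59 and 0.53 FPKM in the ovaries. The means were 73.6 ± 3.37 FPKM in testis and 0.573 ± 0.0379 FPKM in ovary (SD, n = 3 each), and the log2 fold change was 6.44 ± 0.41 (SE, edgeR adjusted p = 0.000758). The estimated counts behind these values were 3079, 1926 and 1259 in the testes and 30, 19 and 27 in the ovaries. In counts the testes were less alike than in FPKM, since a count on a shorter transcript adds more FPKM and the 3 testes divided their counts differently between a long and a short transcript.

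Dmc1, the strand exchange enzyme, had 90.8, 49.6 and 57.6 FPKM in the testes, against 0.72, 0.68 and 1.71 FPKM in the ovaries. Testis replicate 1 was the highest, and ovary replicate 3 was the highest ovary of dmc1. The means were 66.0 ± 21.8 FPKM in testis and 1.04 ± 0.583 FPKM in ovary (SD, n = 3 each), with a log2 fold change of 5.68 ± 0.45 (SE, edgeR adjusted p = 0.000854). Of the 5 genes dmc1 had the smallest fold change, with 24, 16 and 41.0 counts in the ovaries.

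Hsf2bp, which acts beside dmc1, was the most abundant of the 5 in testis. It had 196, 154 and 196 FPKM in the testes, against 1.35, 0.79 and 1.39 FPKM in the ovaries. The means were 182 ± 24.3 FPKM in testis and 1.18 ± 0.335 FPKM in ovary (SD, n = 3 each), with a log2 fold change of 6.99 ± 0.39 (SE, edgeR adjusted p = 0.000758). Only 4 of 12367 genes had a smaller p value. By mean FPKM, 407 units lay above hsf2bp in testis, and it stood above 96.9% of the units with any FPKM there, against 17.7% in ovary.

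Cntd1, a crossover gene named here by its best protein hit, had 111, 58.3 and 49.6 FPKM in the testes. The ovaries had 0.18, 0.08 and 0.09 FPKM. Testis replicate 1 held about as much as the other two together. The means were 72.9 ± 33.2 FPKM in testis and 0.117 ± 0.0551 FPKM in ovary (SD, n = 3 each), with a log2 fold change of 8.90 ± 0.60 (SE, edgeR adjusted p = 0.000772). The ovaries held 5, 2 and 3 counts, 10 in all, against 4741 in the testes. Per total count this was a ratio of 621, with a 95% exact binomial interval of 337 to 1295.

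C9orf84, which stabilises crossover intermediates, was the lowest of the 5 in both tissues. It had 27.2, 17.9 and 8.15 FPKM in the testes, against 0.01, 0 and 0.01 FPKM in the ovaries. The single transcript drew 1770, 1137 and 463 counts in the testes and 1, 0 and 1 counts in the ovaries, so that the testes spread 3.34-fold while the ovaries were next to empty. The fitted log2 fold change was 10.53 ± 0.82 (SE, edgeR adjusted p = 0.000854), a value that depends on how such low counts are treated. The ratio of counts, testis over ovary, was 2206, with a 95% interval from 610 to 18220. Leaving out 1 library at a time gave ratios from 1551 to 2914. The intervals cover counting error only.

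Within the testis the order of the levels per length was hsf2bp, mei1, cntd1, dmc1 and c9orf84. Hsf2bp was above each of the other genes in all 3 testes, and c9orf84 was below each of them in all 3, with no overlap of the ranges. Mei1, cntd1 and dmc1 overlapped and could not be put in order, each pair changing places between fish. In the ovary the means ran from hsf2bp and dmc1, whose ranges overlapped, to mei1, cntd1 and c9orf84. By means alone, the ovary order differed from that of the testis in the place of dmc1, which had the second highest mean in ovary. In testis the place of dmc1 beside mei1 and cntd1 was not settled, so a change of place between tissues cannot be read from these means.

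The fold of each of the 5 genes exceeded that of the general germ cell marker ddx4 (vasa), a helicase of germ cells of both sexes. Ddx4 was higher in testis, with 1100, 834 and 924 FPKM in the testes, against 144, 112 and 97.6 FPKM in the ovaries (log2 fold change 2.78, edgeR adjusted p = 0.0018). Of the 6 matched germ cell markers of both sexes, 4 had every testis above every ovary and 2 the reverse, namely sall4, at 13.3 to 22.4 FPKM in testis and 70.9 to 105 FPKM in ovary, and nanos3, at 0 to 3.11 FPKM in testis and 83.3 to 96.4 FPKM in ovary. Taken as a share of ddx4 in the same library, which removes the scaling between libraries, hsf2bp came to 17.9%, 18.5% and 21.2% in the testes and 0.936%, 0.706% and 1.42% in the ovaries. Dmc1 came to 8.25%, 5.95% and 6.23% in the testes and 0.499%, 0.608% and 1.75% in the ovaries. The testis means for mei1, cntd1 and c9orf84 were 7.85%, 7.48% and 1.83%, against ovary means of 0.495%, 0.0962% and 0.00573%. For each gene all 3 testes stayed above all 3 ovaries, and the exact permutation test (two-sided) gave p = 0.1, its smallest value with 3 fish a side. This outcome was fixed by the raw values. Their smallest gap, 29.0 times for dmc1, exceeded any ratio of ddx4 between a testis and an ovary. The test therefore adds no support of its own. The narrowest gap was that of dmc1, whose lowest testis was 3.4 times its highest ovary on this measure.

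The 12 transcripts, shown one by one in the plot of transcripts in every library, were all built from testis long reads, as were 35.6% of the 35011 transcripts. Among all symbols, 18% had transcripts from testis long reads alone. The names of the transcripts give the number of full-length long reads behind each, following the naming of PacBio Iso-seq. These came to 42 for hsf2bp, 22 for dmc1, 17 for cntd1, 4 for mei1 and 2 for c9orf84, and the median testis transcript had 2. Transcript lengths ran from 1274 to 5025 bases. Reads shared by transcripts of a gene were divided by the authors' quantification, so a single transcript's value is an estimate.

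**Figure D2:**
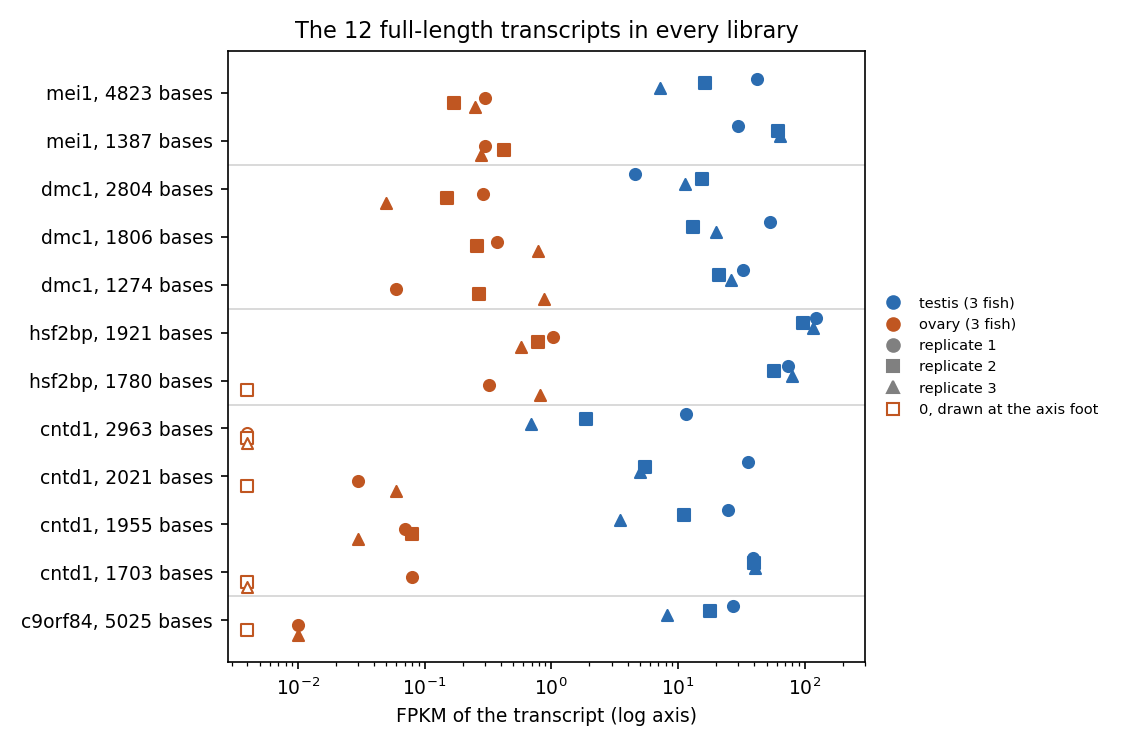
FPKM of each of the 12 transcripts (log axis) in 3 testes (blue, upper position in a row) and 3 ovaries (orange, lower position), named by gene and length in bases, with open symbols for 0. Every testis value lies above every ovary value in each row, and the testes spread most for the 2963-base transcript of cntd1, from 0.69 to 11.6 FPKM.

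All 12 transcripts had every testis above every ovary, where 23.9% of 30738 tested transcripts did. In the fit over transcripts 11 of 12 were called higher in testis and none in ovary, against 6.26% of all transcripts called higher in testis. Both shares cover transcripts built from either tissue, whereas all 12 were built from testis long reads. The shares among testis-built transcripts alone were not computed, so these contrasts do not set the 12 apart from them. Of the 12, those with few or no ovary counts passed the low-count filter through the testes and could not be called higher in ovary. The adjusted p values (edgeR) ran from 0.0269 to 0.0525, and the transcript not called was the longest of cntd1. When any one library other than testis replicate 1 was left out, 0 transcripts of the whole table were called (edgeR), the 12 among them (adjusted p from 0.0848 to 0.125), while 7992 to 8493 had an unadjusted p under 0.05. Without testis replicate 1, 8 of the 12 were called, beside 1439 of 32184 transcripts. All 12 had an unadjusted p under 0.05 in each of these fits. DESeq2 called all 12, beside 9907 of 30738 transcripts.

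The 2 mei1 transcripts changed places between fish. The 4823-base transcript had 42.1, 16.4 and 7.25 FPKM in testis replicates 1, 2 and 3, and the 1387-base transcript had 29.6, 61.1 and 64.3 FPKM. The long one thus led in testis replicate 1 and the short one in the other two, while their sum hardly moved. Of the gene's estimated counts the long transcript held 85.2% in testis replicate 1 (95% exact binomial interval 83.9 to 86.4), 51.9% in replicate 2 (49.7 to 54.2) and 31.3% in replicate 3 (28.7 to 33.9). These intervals cover counting error only, not the error of dividing reads between transcripts nor the spread between fish, and the same holds for the other shares. In the ovaries it held 80.2%, 61.9% and 78.8%, on 30, 19 and 27 counts, and the tissue means of 56.1% in testis and 73.6% in ovary differed by less than the spread between testes (exact permutation p = 0.4). Each of the 2 transcripts was supported by 2 full-length reads, and the deposited annotation names no protein domain for either.

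The cntd1 transcripts behaved in a similar way. The 1703-base transcript was almost the same in the 3 testes, at 39, 39.7 and 40.4 FPKM, while the longer ones fell apart between fish. The 2021-base transcript had 35.6, 5.45 and 5.05 FPKM, the 1955-base transcript 24.8, 11.2 and 3.46 FPKM and the 2963-base transcript 11.6, 1.88 and 0.69 FPKM in testis replicates 1, 2 and 3. All 3 longer transcripts were highest in replicate 1, and in deposited FPKM the excess of cntd1 in that fish lay in them. Scales that rescale the libraries were not examined for single transcripts. The short transcript held 29.3% of the gene's counts in replicate 1 (95% interval 27.5 to 31.1), 63.0% in replicate 2 (60.2 to 65.7) and 77.8% in replicate 3 (75.0 to 80.5). Among the long reads the 1955-base transcript had 11 of the 17 full-length reads of cntd1, and the short one had 2. The deposited annotation names a MazG-like family domain for the 2021-base transcript and no domain for the others. It gives a cyclin domain for none of them. The 2963-base transcript had no count in any ovary. With 3 counts over the ovaries as the floor, testis was at least 226-fold higher. Leaving out testis replicate 1 gave a bound of 60.7, and leaving out ovary replicate 1 or 3 gave 149 or 144. With 10 counts in the 3 ovaries, a transcript mix of cntd1 in ovary was not measurable at this depth.

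Dmc1 also shifted between its 3 transcripts. The 1806-base transcript had 53.7, 13.2 and 20.1 FPKM in testis replicates 1, 2 and 3, the 2804-base transcript 4.56, 15.5 and 11.3 FPKM, and the 1274-base transcript 32.5, 21.0 and 26.2 FPKM. Here the longest transcript was lowest in replicate 1, the reverse of mei1 and cntd1. Of the counts of dmc1 the 1806-base transcript held 65.0% in replicate 1 (95% interval 62.7 to 67.2), 25.2% in replicate 2 (22.6 to 27.8) and 36.0% in replicate 3 (33.1 to 39). The 2804-base transcript held 9.08% (7.80 to 10.6), 48.5% (45.5 to 51.5) and 33.2% (30.3 to 36.2) in the same fish. The 1806-base transcript had 17 of the 22 full-length reads. The deposited annotation gives a recA domain for this transcript and a DnaB-like helicase domain for it and for the 1274-base transcript, and no domain for the 2804-base one.

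Hsf2bp stood out by a constant mix. Its 1921-base transcript held 64.2%, 64.6% and 61.6% of the counts in testis replicates 1, 2 and 3, with 95% intervals from 60.0 at the lowest to 66.2 at the highest. The levels were 122, 96.5 and 117 FPKM for this transcript and 74.3, 57.8 and 79.6 FPKM for the 1780-base transcript in testis replicates 1, 2 and 3. The annotation gives both a HEAT repeat. Both transcripts were lowest in replicate 2, and their proportions moved by 3.03 percentage points at most. The 1921-base transcript had 39 full-length reads, the most of the 12. In the ovaries it held 77.8%, 100% and 43.9% of 38, 20 and 40 counts.

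**Figure D3:**
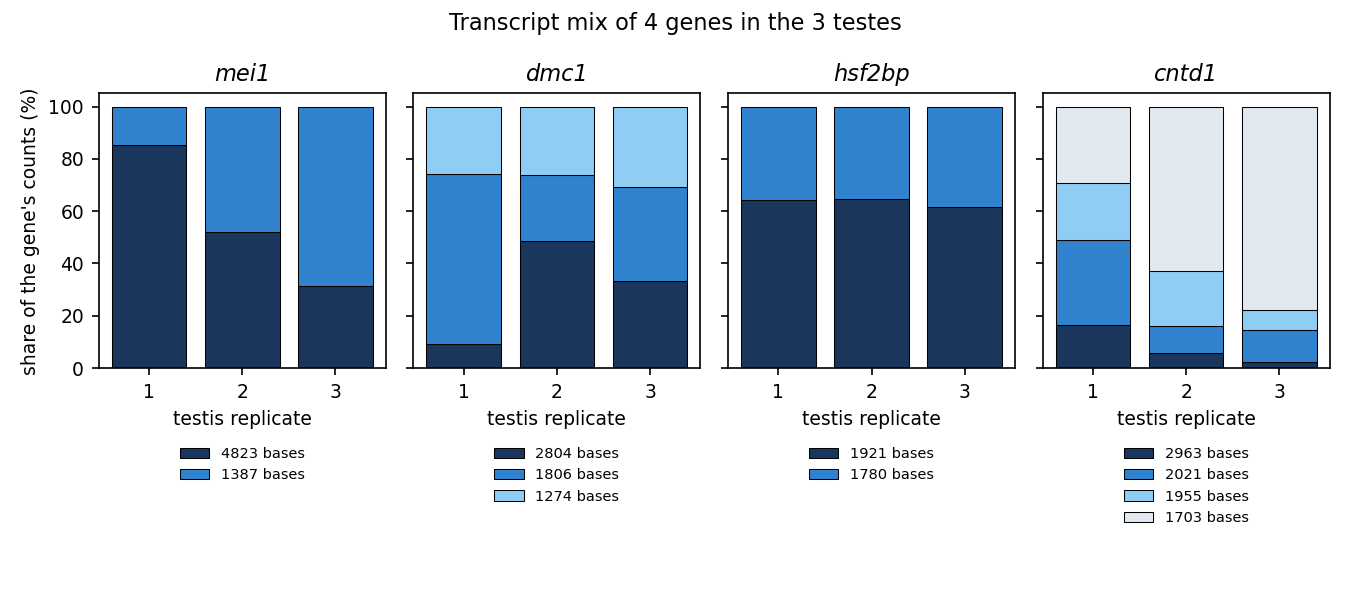
Share of each gene's estimated counts (%) held by its transcripts, named by length in bases, in testis replicates 1, 2 and 3. The 4823-base transcript of mei1 took 85.2%, 51.9% and 31.3%, the 1703-base transcript of cntd1 29.3%, 63.0% and 77.8%, and the 1921-base transcript of hsf2bp 64.2%, 64.6% and 61.6%.

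How far the 3 testes differed depended on the scale. In FPKM, testis replicate 1 was the highest for dmc1, hsf2bp, cntd1 and c9orf84, and replicate 2 for mei1. The deposited FPKM summed to 770032, 1218425 and 1312673 in testis replicates 1, 2 and 3. When they were rescaled to a sum of 1000000 per library (TPM), replicate 1 was the highest for all 5 genes, with mei1 at 93.2, 63.6 and 54.5 TPM. In CPM (counts over the library total) scaled by TMM, the default of edgeR, mei1 stood at 194, 137 and 99.5 and hsf2bp at 272, 237 and 297, with replicate 3 the highest for hsf2bp. Replicate 1 exceeded the mean of the other two by 2.06, 3.36 and 2.10 times for cntd1 and by 2.10, 3.39 and 1.89 times for c9orf84 on the 3 scales. For hsf2bp the factors were 1.12, 1.85 and 1.02.

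**Figure D4:**
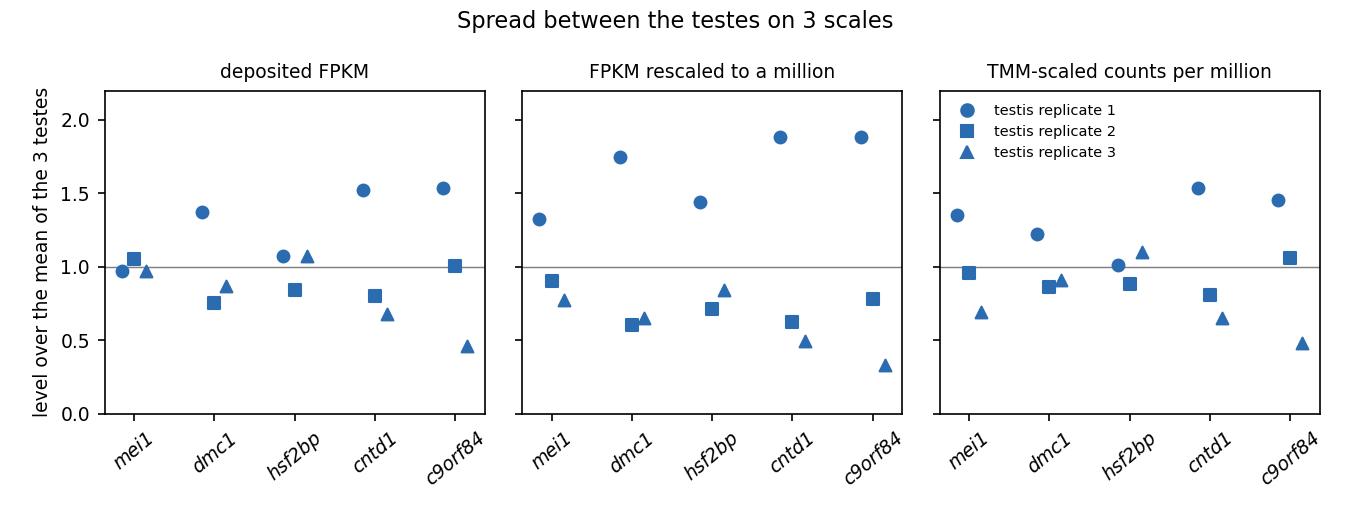
Level of each gene in testis replicates 1, 2 and 3 over the mean of the 3 testes, in deposited FPKM, in FPKM rescaled to a sum of 1000000 per library (TPM) and in TMM-scaled CPM. Replicate 1 leads for dmc1, cntd1 and c9orf84 on all 3 scales, whereas the place of mei1 and hsf2bp changes with the scale.

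Ratios between genes of the same fish are free of the scaling between libraries, though as ratios of FPKM they still depend on transcript length. Cntd1 came to 0.564, 0.377 and 0.253 of the hsf2bp level in testis replicates 1, 2 and 3, and c9orf84 to 0.139, 0.116 and 0.0415. Dmc1 came to 0.462, 0.322 and 0.293, and mei1 to 0.365, 0.502 and 0.365. The highest testis stood above the lowest by 2.23 times for cntd1 and 3.34 times for c9orf84 on this measure, and by 1.57 times for dmc1 and 1.38 times for mei1. With 1 fish for each value these ratios have no error of their own. The small spread of mei1 beside hsf2bp holds for values scaled by transcript length and not for counts. In counts mei1 fell from 3079 to 1926 and 1259 in testis replicates 1, 2 and 3, beside 4321, 3329 and 3754 for hsf2bp.

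The call of the 5 genes did not rest on 1 library. Without testis replicate 1, which stood apart, the log2 fold changes were 6.16 for mei1, 5.51 for dmc1, 6.98 for hsf2bp, 8.45 for cntd1 and 10.15 for c9orf84, with edgeR adjusted p values from 0.000717 to 0.000901. Without testis replicate 2, the highest testis in egg envelope genes, they were 6.38, 5.69, 7.0, 8.94 and 10.39 in the same gene order (adjusted p = 0.00479 for each).

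Other genes of the pathway were taken from 6 lists ordered by step, in which 80 genes beside the 5 were tested. Of these 80, testis was higher for 37 (46.2%) and ovary for 8, and the median log2 fold change was 1.13. Over all 12367 genes, testis was higher for 24.8% and ovary for 21.1%, with a median of 0.11. The 8 higher in ovary became 14 without testis replicate 1 and 3 without ovary replicate 2. The steps differed in how many of their genes were called, a difference that was not itself tested. The counts by step leave out the 5 genes, and ± gives the SD over 3 fish of a tissue. A symbol is that of the best protein hit, so close relatives may share one.

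In break formation, testis was higher for 8 of 9 genes and ovary for none, with a median of 4.11. Hormad1, which marks the axes of unpaired chromosomes, stood at 125 ± 66.9 FPKM in testis and 0.350 ± 0.122 FPKM in ovary (edgeR adjusted p = 0.000807), and zcwpw1, a reader of the histone marks at break sites in the mouse, at 75.9 ± 61.6 FPKM in testis and 0.253 ± 0.0473 FPKM in ovary (adjusted p = 0.000928). Ankrd31 and transcripts with the symbol prdm9 were higher by 4.68 and 4.89 on the log2 scale (adjusted p = 0.00111 for both). Spo11, the enzyme that makes the break, named outside the rule for named genes, stood at 71.5 ± 19.2 FPKM in testis and 4.08 ± 1.81 FPKM in ovary, close to mei1 in testis. The gene not called was ccdc36, at 30.4 ± 21.2 FPKM in testis and 36.2 ± 6.61 FPKM in ovary. Without testis replicate 1 it was called higher in ovary.

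In strand exchange, where dmc1 and hsf2bp act, 2 of the other 19 genes (10.5%) passed the test as higher in testis, 1 as higher in ovary, and 16 did not pass it. Their median was 0.67, and 10 of the 19 had every testis above every ovary, beside 35.1% of all 12367 genes. Spata22 just missed the call (log2 fold change 3.46, edgeR adjusted p = 0.0508) and was called under 5 alternatives. Rad51d, of the recombinase-loading complexes, rose to 43.4 ± 12.3 FPKM in testis, against 1.57 ± 0.491 FPKM in ovary (edgeR adjusted p = 0.00111), and rad51ap1 had a log2 fold change of 1.32 (adjusted p = 0.0361), a call lost when any 1 library was left out. Rad54l, a motor that works with the recombinase, was lower in testis, at 8.44 ± 2.88 FPKM, against 18.6 ± 3.47 FPKM in ovary (adjusted p = 0.0132), and its call was lost without ovary replicate 2. The partners of dmc1 in strand invasion, psmc3ip (HOP2) and mnd1, named outside the rule, were not called, at 171 ± 78.5 FPKM in testis and 71.7 ± 32.5 FPKM in ovary for psmc3ip, and at 30.0 ± 10.6 FPKM in testis and 50.4 ± 15.3 FPKM in ovary for mnd1 (adjusted p = 0.144 and 0.0569). Mnd1 was called higher in ovary without testis replicate 1, with RLE scaling and with DESeq2, and psmc3ip higher in testis with limma on log2(FPKM + 1) and log2(FPKM + 0.1). The count of strand exchange genes higher in testis was 5 with upper quartile scaling and 6 with limma on log2(FPKM + 1).

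In crossover designation, where cntd1 and c9orf84 belong, 11 of the other 14 genes were higher in testis and none in ovary, with a median of 2.0. Msh4, whose complex with msh5 clamps the intermediates, stood at 41.3 ± 17.5 FPKM in testis and 1.93 ± 0.192 FPKM in ovary (edgeR adjusted p = 0.00103), and msh5 at 11.6 ± 4.01 FPKM in testis and 0.317 ± 0.0929 FPKM in ovary (adjusted p = 0.00138). Both were below cntd1 in log2 fold change, at 4.49 and 4.87. Tex11, which is needed for crossovers in the mouse, and rnf212b were higher by 3.63 and 6.59 on the log2 scale (adjusted p = 0.00222 and 0.00229). Without testis replicate 1, without ovary replicate 2 or with limma on log2(TPM + 1) the count was 7 of 14, and without the other libraries it was 8 or 9.

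In break processing and signalling, 5 of 17 genes (29.4%) passed as higher in testis and 3 as higher in ovary. Of all 12367 genes, 24.8% were called higher in testis and 21.1% higher in ovary. The median of the list was 0.21. This median turned negative under TPM scaling (-0.28) and on leaving out ovary replicate 1 (-0.10) or testis replicate 1 (-0.08). It was also negative with the replicate number as a block in edgeR (-0.17) and with limma-voom (-0.07). Without ovary replicate 1 or 2 testis was higher for 3 genes and ovary for 1, and without testis replicate 2 for 3 and 2. Rad50 and rad9b rose by log2 fold changes of 2.45 and 2.81 (edgeR adjusted p = 0.0030 and 0.00495), while mre11, the nuclease that forms a complex with rad50, was lower in testis, at 25.0 ± 0.310 FPKM, against 55.9 ± 13.2 FPKM in ovary (adjusted p = 0.00886). Without testis replicate 1 the genes higher in ovary were 6. In the processing of joint molecules, testis was higher for 2 of 10 genes (20%), beside 24.8% of all genes. Ovary was higher for 4, and the median was -0.13. Helq, a helicase, had a log2 fold change of -1.8 and slx1a, a nuclease subunit, one of -1.70 (edgeR adjusted p = 0.00501 and 0.0101). Eme1, the partner of the nuclease mus81, had one of -1.41 (adjusted p = 0.0217). The call of slx1a was lost without ovary replicate 2 and that of eme1 without testis replicate 2, while that of helq held under each alternative. Fancm rose by 1.42 (adjusted p = 0.0251), a call lost with TPM scaling and without each ovary or testis replicate 2. The median of this list was 0.03 with upper quartile scaling. None was higher in testis without any 1 of the ovaries, without testis replicate 2 or with TPM scaling, 3 were with upper quartile scaling or without testis replicate 3, and 5 were higher in ovary without testis replicate 1. Without testis replicate 2 or ovary replicate 2, 2 were higher in ovary.

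In synapsis and the chromosome axis, 9 of 11 were higher in testis and none in ovary, with a median of 4.62. Sycp3, of the axis, stood at 242 ± 111 FPKM in testis and 8.15 ± 3.34 FPKM in ovary (edgeR adjusted p = 0.00102), and syce3, of the central element, at 99.1 ± 19.2 FPKM in testis and 0.340 ± 0.340 FPKM in ovary (adjusted p = 0.00137). Sycp2, of the axis, and rec8, the cohesin subunit of meiosis, were higher by 7.28 and 10.76 on the log2 scale (adjusted p = 0.00196 and 0.00269), and DESeq2 gave rec8 no adjusted p. Rec8 had 110, 9.95 and 9.17 FPKM in testis replicates 1, 2 and 3, against 0, 0.02 and 0.03 FPKM in the ovaries. The count higher in testis was 7 of 11 with DESeq2 and 8 of 11 with limma-voom.

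**Figure D5:**
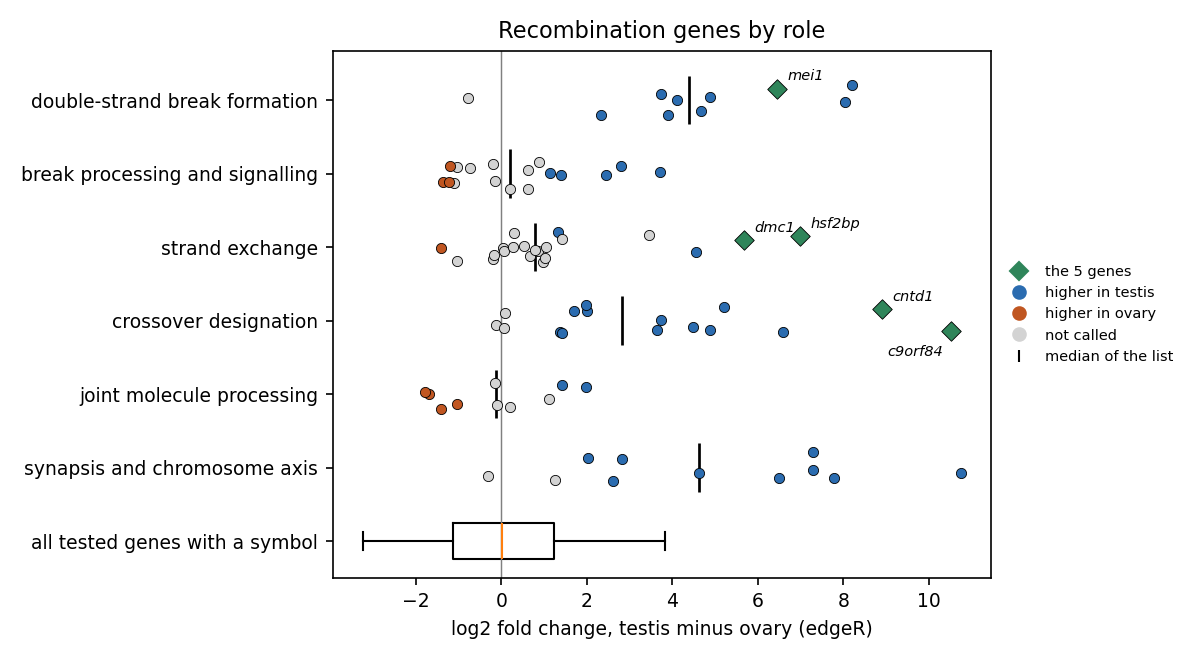
Log2 fold change, testis minus ovary, of recombination genes by role, with diamonds for the 5 genes, blue for genes higher in testis, orange for genes higher in ovary, grey for genes not called and a bar for the median of a list. The box shows the quartiles and the whiskers the 5th and 95th percentiles of tested genes with a symbol. The medians of break formation, crossover designation and synapsis lie at 4.4, 2.82 and 4.62 with the 5 genes included, and that of joint molecule processing at -0.13, which turned to 0.03 with upper quartile scaling.

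For 4 of the 5 genes, the 3 genes with the most similar profile over the 6 libraries were taken by Pearson's r of log2(FPKM + 1). For hsf2bp they were tspo, zan and drc7 (r = 0.9997, 0.9992 and 0.999). Tspo, a protein of the outer mitochondrial membrane, had 81.5, 59.3 and 86.6 FPKM in the testes, against 0.42, 0.16 and 0.48 FPKM in the ovaries, and shared the low value of hsf2bp in testis replicate 2. For mei1 they were znf541, smurf2 and rab11fip5, and znf541, a zinc finger protein, came closest in level, with 76.6, 104 and 90.7 FPKM in the testes and 0.19, 0.14 and 0.03 FPKM in the ovaries. For cntd1 they were fam234b, chn2 and c18orf63, and for c9orf84 mkx, raph1 and casc1. Casc1 had 43.3, 31.4 and 14.8 FPKM in the testes, against 0.47, 0.34 and 0.44 FPKM in the ovaries, in the fish order of c9orf84. Between 94 and 195 genes had an r over 0.99 with a given gene, since the gap between the tissues carries most of such a correlation over 6 libraries.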

How the data were processed

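The authors extracted RNA with TRIzol and made Illumina libraries with the NEBNext Ultra kit, per the labels' protocols. The submitters' processing notes name featureCounts 1.5.0-p3, HISAT2 2.0.5, fastp and CASAVA 1.8 with no role. The build and the tool that divided reads between transcripts were not given in the sources used here. Per the file headers, the deposited values are read counts and FPKM per full-length transcript. The deposited counts were whole numbers for 26.5% to 31.6% of transcripts of a library, so they are called estimated counts and were rounded for the count models. The deposited FPKM equalled counts over library total and over transcript length less a median of 246 to 276 bases.

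Symbols came from Swiss-Prot hits in vertebrates for 31079 transcripts (9262 symbols), and counts and FPKM were summed per symbol, with the other transcripts kept single (13194 units). Testis minus ovary was tested with edgeR 4.0.16 (TMM, filterByExpr, robust glmQLFit and glmQLFTest, tissue as the only term) in R 4.3.3 over 12367 units and 30738 transcripts, and Benjamini-Hochberg adjusted p values under 0.05 were called. All 5 genes and 12 transcripts passed the filter on low counts, which asks for enough counts in the libraries of 1 tissue. Cntd1, c9orf84 and the transcripts with few or no ovary counts passed it through the testes. For these a call higher in ovary was not possible. The standard error of a log2 fold change is its size over the square root of the F statistic. For shares, the exact permutation test was two-sided. Alternatives used DESeq2 1.42.0 and limma 3.58.1, and tables and figures were made with matplotlib 3.10.9, scipy 1.17.1, numpy 2.4.6 and pandas 2.3.3.

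The genes, the lists and the rule for named genes (the 5 genes, up to 4 per list by adjusted p, and 3 of most similar profile per gene) were chosen with earlier results of these data known. Not reported here are the profiles most similar to dmc1 and 1 break processing gene named by that rule.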

Additional observations from a re-analysis of the deposited data

How the results depend on the processing

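The 5 genes kept their direction and their call under all 15 alternatives, with adjusted p values of at most 0.00877. The log2 fold changes ranged from 5.31 to 6.78 for mei1, 4.74 to 6.02 for dmc1, 6.08 to 7.19 for hsf2bp, 5.82 to 9.22 for cntd1 and 3.99 to 10.80 for c9orf84. The lowest of each came with limma on log2(TPM + 1). Its pseudocount, which limma on log2(FPKM + 1) shares, shrinks genes near 0 in ovary. The TPM scaling also lowered the median over all genes, as given below. Limma-voom and the TPM scaling were chosen after the data were seen. The called genes, 5681 in all, stayed between 3895 and 6553, and testis held 54.1% of them, against 44% with TPM and 60.2% with upper quartile scaling. Over all genes, the median of 0.11 on the log2 scale became -0.14 with TPM, 0.26 with limma on log2(FPKM + 1), 0.29 on log2(FPKM + 0.1) and 0.30 with upper quartile scaling. The other recombination genes higher in testis, 37 in all, stayed between 28 and 41.

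The fit over transcripts was less stable. Its 3276 calls became 9907 with DESeq2, 5438 and 6341 with limma on log2(FPKM + 1) and log2(FPKM + 0.1), 2076 with limma-voom and 1570 without the filter, and 0 to 1439 when a library was left out (7992 to 9521 with an unadjusted p under 0.05). The 11 of 12 called transcripts of the 5 genes became 6 with limma-voom and 0 to 8 when a library was left out. The cause was not tested. With the replicate number as a block, edgeR called 4334 genes, the 5 among them (adjusted p = 0.00877), and 0 transcripts (7300 with an unadjusted p under 0.05), 0 of the 12. Deviations of same-numbered testes and ovaries from their tissue means correlated at -0.035, 0.002 and -0.035 over genes. Over transcripts the values were 0.018, 0.007 and 0.001. Whether same-numbered libraries shared a processing step was not tested.

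The difference between tissues in the share of a leading transcript ranged, when a library was left out, from -13.9 to 6.01 percentage points for dmc1 and from -25.4 to 2.61 for hsf2bp, so neither has a direction. The low ovary counts, 10 for cntd1 and 2 for c9orf84, limit what can be said of the ovary.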

Other observations

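Testis replicate 1 held the highest FPKM of the 3 testes for 66 of the 80 other recombination genes, against 4607 of 9182 tested genes with a symbol. By list the counts without the 5 genes were 10 of 10 for joint molecule processing, 16 of 19 for strand exchange, 13 of 17 for break processing, 12 of 14 for crossover designation, 9 of 11 for synapsis and the axis and 6 of 9 for break formation. The median log2 ratio of replicate 1 over the mean of replicates 2 and 3, on the log2(FPKM + 1) scale, was 0.96 for the 80 genes and 0.18 for genes with a symbol. Of the 5 genes, 4 were highest in this fish.

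Of the 80 genes, 27 had transcripts from testis long reads alone (33.8%), against 17.7% of tested genes with a symbol, and by list these were 7 of 9 in break formation, 8 of 11 in synapsis and the axis, 5 of 14 in crossover designation, 3 of 17 in break processing, 3 of 19 in strand exchange and 1 of 10 in joint molecule processing.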
